A study of Mus musculus with 16 samples.

Results

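The 33 genes described here are those of the pancreatic acinar cell that were chosen by name for this account: 21 secreted enzymes or enzyme cofactors, 8 other acinar proteins and 4 transcription factors. They were looked up by gene symbol among the 27308 symbols of the arrays, and for each the brightest probe, by its mean in the quantile-normalized table, stands for the gene. In total 32 were found under their own symbol, and Spink3 was found under the symbol Spink1. All 33 were among the 22748 genes tested, since each probe exceeded background clearly (the scanner software's well-above-background flag) on 5 or more arrays. The genes were picked with earlier results of the same arrays known, and the probe was picked on its mean signal, so the counts below describe these genes and are no independent evidence of a direction.

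RNA came from tumours of an orthotopic pancreatic cancer model, in which tumours grow in the pancreas itself, in female C57BL/6 mice. The 6 vehicle samples carry the time label control and no time, and serve both comparisons. The 5 samples of the 48 h group and the 5 of the 10 day group had received ADH 503 (ADH-503), a small molecule that activates the integrin CD11b on myeloid cells; titles of treated samples call it LA1. Tumour cell line, animal age, dose and pooling of animals are not given in the sources used here, and no label ties each sample to its own animal, so p-values reflect sample-to-sample spread that may be technical in part. Labelled RNA was measured on 1-colour Agilent mouse arrays, of which 74.9% to 81.2% of probes were well above background. All values are log2 of the processed signal minus the 75th percentile of the same array, so 0 is that percentile and a difference of 1 is a doubling. The arrays lie on 2 slides: slide 1 has 1 vehicle array, 4 from 48 h and 3 from 10 days, and slide 2 has 5, 1 and 2.

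Acinar cells make up most of the normal exocrine pancreas and pack digestive enzymes into zymogen granules, from which they are released into the ducts. Most proteases are stored as inactive precursors that trypsin activates in the gut, while inhibitors in the granule restrain trypsin that becomes active too early. PTF1A, a basic helix-loop-helix protein that binds E-boxes, works with RBPJL in the PTF1 complex, which drives the enzyme genes. BHLHA15 (MIST1) organises the secretory apparatus, and the nuclear receptor NR5A2 takes part in keeping up the acinar programme. In bulk samples of this kind, fewer cells of a type and less RNA per cell cannot be told apart.

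The trypsin genes are near copies of each other, so probes are shown first, with the runs of bases that they share with each other. Capitals in the Try5 probe mark the run of 31 bases it shares with the Try4 probe, and capitals in the Prss3 probe mark the run of 15 bases it shares with the Try5 probe.
Try5: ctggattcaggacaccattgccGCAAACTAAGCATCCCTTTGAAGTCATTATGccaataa
Prss3: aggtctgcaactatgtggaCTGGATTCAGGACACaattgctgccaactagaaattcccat
Prss2: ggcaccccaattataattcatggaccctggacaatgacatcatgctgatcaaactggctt
Run shared by Try4 and Try5: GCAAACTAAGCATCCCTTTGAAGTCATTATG
The Prss2 probe shares at most 6 bases in a row with the Prss1, Try4 and Try5 probes and 5 with that of Prss3. Prss3 also shares 31 bases with the probe of Gm5771, Prss1 shares 25 with it and 15 with the Try4 probe, and Klk1 shares 28 with that of Klk1b4. The signals of Try4, Try5, Prss3, Prss1 and Klk1 are therefore uncertain as measures of a single gene. Probes were set against probes only, so whether the Prss2 probe also matches transcripts of the other trypsins was not tested. On mouse genome build mm9, as the files give it, the Try4 probe lies at chr6:41255472-41255531, Try5 at chr6:41261247-41261306, Prss3 at chr6:41323803-41323862, Prss1 at chr6:41413726-41413785 and Prss2 at chr6:41473937-41473996; exons of that build were not used here.

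Promoters bear on the comparison of enzymes with transcription factors, since the PTF1 complex is known to act there. RefSeq promoter sequences (assembly GRCm38.p6) matched 28 of the 33 genes, and the 250 bases before each start were searched on both strands. The E-box CACCTG, which reads CAGGTG on the other strand, was in 18 of the 28 (64.3%) and in 17.1% of 27025 mouse promoters of the same length. The RBPJ core TGGGAA, which reads TTCCCA on the other strand, was in 15 of them (53.6%) and in 21.5% of all. Both were in 7 of the genes (25.0%; Cel, Cela2a, Ctrl, Klk1, Prss1, Prss2 and Rbpjl) and in 3.87% of all promoters; these motifs may overlap at their ends. The NR5A2 motif AAGGTCA, which reads TGACCTT on the other strand, was in 4 of the 28 (14.3%; Cel, Cela1, Klk1 and Prss1) and in 4.05% of all. A match describes letters and is not a shown binding site, and promoters of near copies such as the trypsins are not independent. Windows of 3 enzymes and of 1 transcription factor that hold both motifs are printed 5′ to 3′ on the gene's strand, with E-boxes and RBPJ cores in capitals: Cel at chr2:28563404-28563653 (minus strand), Ctrl at chr8:105933863-105934112 (minus), Prss2 at chr6:41521526-41521775 (plus) and Rbpjl at chr2:164402944-164403193 (plus).
Cel: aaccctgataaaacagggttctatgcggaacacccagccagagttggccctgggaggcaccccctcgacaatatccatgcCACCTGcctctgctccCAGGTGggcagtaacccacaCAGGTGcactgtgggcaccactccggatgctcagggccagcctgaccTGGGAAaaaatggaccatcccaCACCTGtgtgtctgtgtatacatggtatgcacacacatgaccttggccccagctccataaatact
Ctrl: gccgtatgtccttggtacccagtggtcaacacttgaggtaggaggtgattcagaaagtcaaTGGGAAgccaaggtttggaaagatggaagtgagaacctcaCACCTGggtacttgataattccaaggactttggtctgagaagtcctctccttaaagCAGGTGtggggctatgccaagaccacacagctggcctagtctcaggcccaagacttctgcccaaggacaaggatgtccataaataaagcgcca
Prss2: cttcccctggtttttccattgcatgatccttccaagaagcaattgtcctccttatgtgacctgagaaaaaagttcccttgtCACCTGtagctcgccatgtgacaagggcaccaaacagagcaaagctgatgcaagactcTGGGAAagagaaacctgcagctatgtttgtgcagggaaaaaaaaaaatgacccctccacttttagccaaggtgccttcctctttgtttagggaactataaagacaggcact
Rbpjl: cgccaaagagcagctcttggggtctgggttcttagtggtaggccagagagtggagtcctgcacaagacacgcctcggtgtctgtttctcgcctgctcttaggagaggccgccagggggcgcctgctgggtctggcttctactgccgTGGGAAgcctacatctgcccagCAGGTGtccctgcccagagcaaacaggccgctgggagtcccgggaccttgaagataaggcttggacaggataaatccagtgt

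Within the vehicle group the enzymes already differed widely between tumours, and most did so together. The mean over the 21 enzymes, each set against its own vehicle mean, ran from -1.12 in vehicle replicate 5 through -0.39, -0.12, 0.09 and 0.70 to 0.87 in replicate 4. In the 48 h group it was 1.28, 0.93, 0.94, 0.48 and 1.09. In the 10 day group it was -0.84, 0.74, 1.27, -1.15 and -1.01. The 48 h arrays were thus all in the upper part of the range, where vehicle replicates 2 and 4 and 10 day replicates 2 and 3 also were, and 10 day replicates 1, 4 and 5 were low. As group values these are 0.01 ± 0.73 (SD, n = 6) for vehicle, 0.94 ± 0.30 (SD, n = 5) at 48 h and -0.20 ± 1.12 (SD, n = 5) at 10 days. Of the 3 low 10 day arrays, replicate 1 is on slide 1 and replicates 4 and 5 are on slide 2; both high ones are on slide 1.

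**Figure D1:**
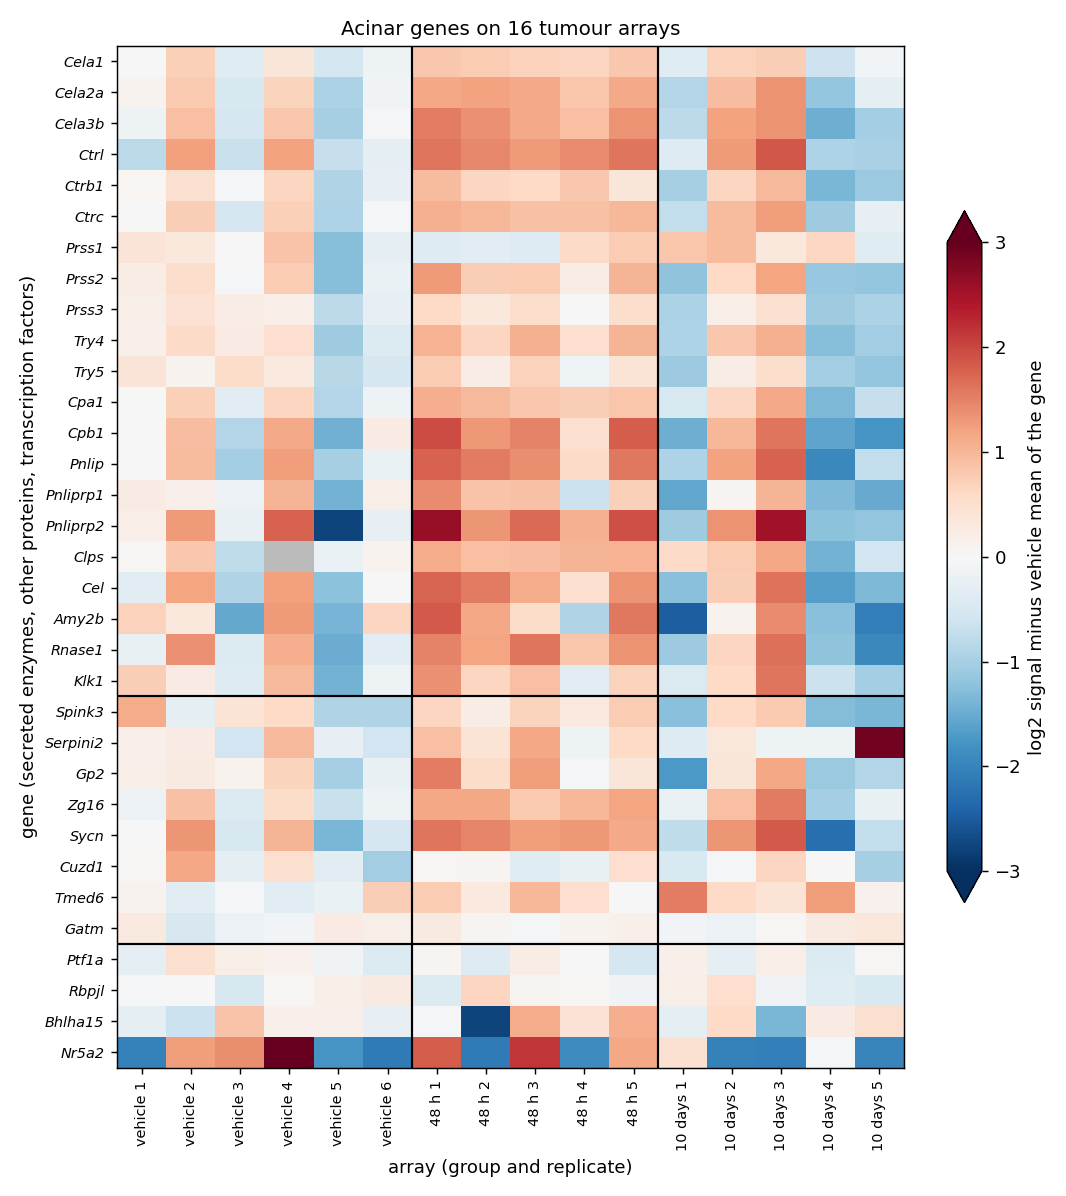
Signal of the 33 acinar genes (rows; enzymes, other proteins and transcription factors separated by lines) on 16 arrays (columns, by group and replicate), as log2 signal minus the gene's vehicle mean, with colours ending at -3 and 3 and the 1 missing value in grey. The enzyme rows are mostly red in the 48 h columns and split in the 10 day columns, with replicates 2 and 3 red and 1, 4 and 5 blue, while Prss1, Gatm, Ptf1a and Rbpjl do not follow them.

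At 48 h, all 21 enzymes had a higher mean than in vehicle, but no member passed limma's test with Benjamini-Hochberg adjustment (adjusted p = 1.0 for each). Neither did any other gene: 0 of 22748 (0%) passed, with 207 genes higher and 363 lower at an unadjusted p under 0.05. The median log2 difference of the enzymes was 0.89, against -0.01 over all genes tested. At an unadjusted p under 0.05, 12 of the 33 members were higher and 0 lower, against 0.91% of all genes higher. For 6 enzymes (Cela2a, Cela3b, Ctrl, Ctrc, Cpa1 and Clps) every 48 h array was above every measured vehicle array, which held for 0.0791% of all genes. These counts are of genes that vary together and so are not independent. With the slide as a block the median came to 0.53 and 0 members had an unadjusted p under 0.05; within slide 1 it was 0.91 (1 vehicle array) and within slide 2 it was 1.06 (1 array at 48 h). Within slide 1, 17 enzymes were higher and 4 were not (Prss1 at -0.53, Klk1 at -0.10, Amy2b at -0.02 and Try5 at 0.00). Without vehicle replicate 5, in which most enzymes were lowest of that group, the enzyme median was 0.72, and 3 members had an unadjusted p under 0.05. Without vehicle replicate 3 or 48 h replicate 1 there were 5. The share of all genes at that level was taken only in the fit over all arrays.

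Among the 11 serine proteases, Ctrl, a chymotrypsin-like protease, had the largest difference. Its vehicle values had a minimum of 0.43, a median of 0.76 and a maximum of 2.45, and the 48 h values were 2.84, 2.67, 2.52, 2.66 and 2.84. The lowest 48 h array was above the highest vehicle array, and vehicle replicates 2 and 4 lay close beneath. The mean was 2.77-fold higher (log2 1.47 ± 0.54, SE; limma adjusted p = 1.0). Cela3b, an elastase-family protease, ran from 0.68 to 2.57 in vehicle (median 1.58) and was 3.21, 3.04, 2.82, 2.58 and 3.02 at 48 h. The groups met without overlap, the lowest 48 h value being 2.58. Its log2 difference was 1.26 ± 0.50 (SE). Cela2a, another elastase, ran from 1.87 to 3.62 in vehicle and from 3.66 to 4.05 at 48 h, a log2 difference of 1.098. Ctrc, the chymotrypsin C that regulates trypsinogen activation, differed by 0.96 and Cela1 by 0.75. The trypsin differences were 0.86 for Try4, 0.80 for Prss2, 0.40 for Try5 and 0.39 for Prss3. Ctrb1, chymotrypsinogen B, differed by 0.67. Prss1 differed by 0.04, by -0.53 within slide 1 and by 0.83 within slide 2; its probe was dim and well above background on 15 of 16 arrays.

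Carboxypeptidases trim amino acids from the ends of peptides that the endoproteases release. Cpa1, carboxypeptidase A1, had a vehicle minimum of 1.72, median of 2.53 and maximum of 3.31. At 48 h it was 3.69, 3.59, 3.42, 3.35 and 3.44, and at 10 days 2.14, 3.22, 3.74, 1.26 and 1.92. All 48 h arrays were above all vehicle arrays, and the 10 day arrays spanned the range from below the lowest vehicle array to the highest value of the 16. The 48 h mean was 1.86-fold that of vehicle (log2 0.89 ± 0.39, SE). Cpb1, carboxypeptidase B1, differed by 1.41 ± 0.64 (SE), with 4 of 5 arrays at 48 h above the highest vehicle array.

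The lipid-digesting group was Pnlip (pancreatic lipase), its relatives Pnliprp1 and Pnliprp2, the cofactor colipase (Clps) and Cel, the bile salt-dependent carboxyl ester lipase. Cel ran from -0.12 to 2.34 in vehicle (median 0.95), and at 48 h was 2.85, 2.67, 2.205, 1.59 and 2.45. Vehicle replicates 2 and 4 overlapped the 48 h range. The log2 difference was 1.25 ± 0.61 (SE). Pnlip differed by 1.38, Pnliprp2 by 1.73 (0.92 with normexp), Clps by 1.0 and Pnliprp1 by 0.64. The Clps spot of vehicle replicate 4 was an outlier spot and was dropped, so its vehicle mean is over 5 arrays; Pnliprp2 was well above background on 12 of 16. Rnase1, the secreted ribonuclease, had a vehicle minimum of -4.07, median of -2.87 and maximum of -1.22, and was -1.10, -1.41, -0.99, -1.76 and -1.23 at 48 h. Its log2 difference was 1.29 ± 0.60 (SE). Amy2b, a pancreatic amylase, differed by 0.85 ± 0.74 (SE) and Klk1, tissue kallikrein, by 0.65 ± 0.50 (SE); for both, the 48 h range reached well into that of vehicle.

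**Figure D2:**
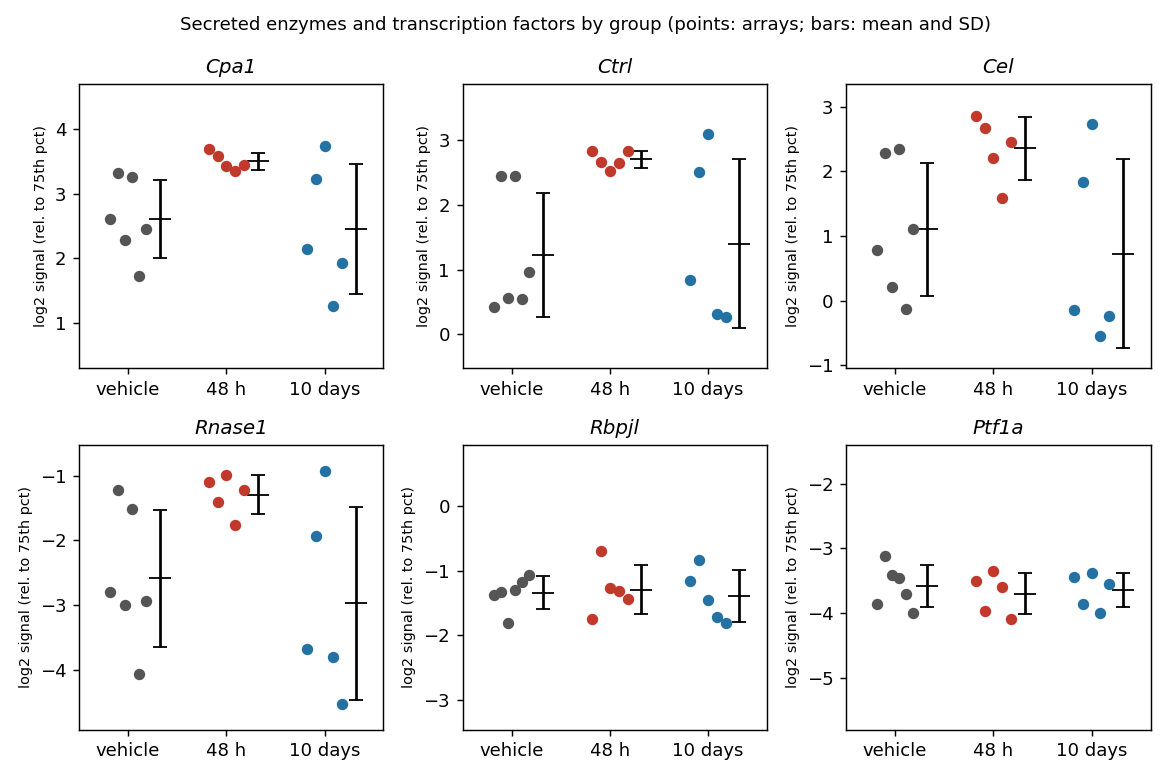
Log2 signal relative to the array's 75th percentile (vertical axes, each spanning the same log2 range) for 4 secreted enzymes and 2 transcription factors in 6 vehicle, 5 arrays at 48 h and 5 at 10 days; points are arrays and bars the mean and SD. Cpa1 and Ctrl points at 48 h lie above all vehicle points, the 10 day points of the 4 enzymes form a high pair and a low trio, and Rbpjl and Ptf1a overlap between all groups.

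Over all 16 arrays, the transcription factors had group differences close to 0, apart from the dim Nr5a2. Their median log2 difference at 48 h was 0.00, with 2 higher, 2 lower and 0 at an unadjusted p under 0.05. Its sign was not settled, at -0.002 with normexp background correction. Within slide 1 the median was 0.185 (1 vehicle array) and within slide 2 it was 0.331 (1 array at 48 h). In the same order Ptf1a was at 0.26 and -0.56 and Rbpjl at 0.11 and -0.10. The dim Bhlha15 was at -0.03 and 1.03, and Nr5a2 at 2.01 and 0.765. Ptf1a ran from -3.99 to -3.11 in vehicle (median -3.58) and was -3.50, -3.97, -3.36, -3.59 and -4.09 at 48 h, and -3.44, -3.86, -3.38, -3.99 and -3.55 at 10 days. The 3 groups overlapped throughout, and the 48 h difference was -0.12 ± 0.18 (SE; limma adjusted p = 1.0). Rbpjl ran from -1.81 to -1.07 in vehicle (median -1.31). It was -1.75, -0.70, -1.27, -1.31 and -1.44 at 48 h, and -1.16, -0.83, -1.46, -1.71 and -1.80 at 10 days. These groups overlapped as well, with a 48 h difference of 0.05 ± 0.20 (SE). Over all members of each class, the span across the 16 arrays had a median of 2.5 log2 units for the transcription factors and 2.58 for the enzymes. The widest spans were those of dim probes: Pnliprp2 (5.4; well above background on 12 of 16 arrays), Nr5a2 (5.39; 7 arrays) and, among the other transcription factors, Bhlha15 (3.89; 14 arrays). Among genes well above background on all 16 arrays, Ptf1a spanned 0.985 and Rbpjl 1.11, and the 19 enzymes from 1.42 (Cela1) to 4.31 (Amy2b). No test of enzymes against transcription factors was made, since both were chosen with these arrays known.

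Over all arrays, the 8 other acinar proteins each had a higher mean at 48 h than in vehicle, by 0.01 to 1.35 on the log2 scale. Of them 1 (Zg16) had an unadjusted p under 0.05, against 0.91% of all genes higher at that level. Sycn (syncollin, a granule membrane-associated protein) had a vehicle minimum of -0.41, median of 0.72 and maximum of 2.27, and was 2.57, 2.41, 2.21, 2.26 and 2.09 at 48 h. Only the top of the vehicle group, replicate 2 at 2.27, reached into that range. The log2 difference was 1.35 ± 0.64 (SE), Zg16, a granule lectin, differed by 1.06 ± 0.39 (SE) and Gp2, the main glycoprotein of the granule membrane, by 0.73 ± 0.47 (SE). Spink3, the trypsin inhibitor, differed by 0.52, but its direction turned: the value was -0.65 on slide 1 alone, 0.99 on slide 2 alone and -0.05 in the blocked fit. Serpini2, a serpin of the pancreas, differed by 0.58, and by 0.22 with normexp background correction. Cuzd1, a protein of the zymogen granule membrane (0.01), Tmed6 (0.52) and Gatm (0.11), the first enzyme of creatine synthesis, complete the group. The direction of Cuzd1 was not settled either, at -0.14 within slide 1, 0.51 within slide 2, -0.04 in the blocked fit and -0.01 with normexp. Gatm was at -0.19 within slide 1 and 0.21 within slide 2. Gatm spanned only 0.807 log2 units over the 16 arrays.

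At 10 days against vehicle, the direction of the enzymes differed between the slides. Their median log2 difference was -0.15, with 7 higher and 14 lower, and 0 of 22748 genes (0%) passed limma's adjusted test (410 higher and 401 lower at an unadjusted p under 0.05). The median was 0.38 within slide 1, -1.11 within slide 2 and -0.46 with the slide as a block. Within slide 1, 15 enzymes were higher and 6 lower, and within slide 2 as well as with the block 1 was higher and 20 were lower. Leaving out 1 array moved the median between -0.59 (without 10 day replicate 3) and 0.15 (without 10 day replicate 4). At an unadjusted p under 0.05, 1 of the 33 members was higher, Tmed6 (a protein of the early secretory pathway), against 1.8% of all genes. Tmed6 ran from -5.69 to -4.63 in vehicle and was -3.84, -4.78, -4.97, -4.12 and -5.26 at 10 days, a difference of 0.78 ± 0.27 (SE; adjusted p = 1.0). Its probe was well above background on 4 of 6 vehicle arrays and 14 of all 16, and with normexp the difference was 0.30 and 0 members were higher at an unadjusted p under 0.05. Its other probe, above background on 4 arrays, had the opposite sign (-0.63). The 4 transcription factors had a median difference of -0.06, with 0.26 within slide 1 and -0.33 within slide 2.

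Between the treated groups, 20 of the 21 enzymes had a lower mean at 10 days than at 48 h, Prss1 being the exception. The median log2 difference was -1.14, against 0.00 over all genes, and again 0 of 22748 genes (0%) passed limma's adjusted test (489 higher and 275 lower at an unadjusted p under 0.05). At an unadjusted p under 0.05, 21 of the 33 members were lower, against 1.21% of all genes; 18 were enzymes and the others were Spink3, Gp2 and Sycn. For Cpb1 the 48 h values were 1.76, 1.11, 1.31, 0.30 and 1.63, and the 10 day values were -1.66, 0.81, 1.43, -1.76 and -1.96. The low trio was below every 48 h array, and replicates 2 and 3 were within the 48 h range. The difference was -1.85 ± 0.67 (SE; adjusted p = 1.0). Amy2b differed by -1.70, Rnase1 by -1.68, Cel by -1.63, Pnlip by -1.501 and Cela3b by -1.39. The enzyme median was -0.55 within slide 1 and -2.14 within slide 2, where 1 array at 48 h meets 2 at 10 days. Without 10 day replicate 4 or 5, 3 members had an unadjusted p under 0.05, and without 10 day replicate 1 there were 6. Without 48 h replicate 1 there were 9, and leaving out 48 h replicate 2, 3 or 5 gave 13 each. Matching shares of all genes were not taken in these fits. The transcription factors had a median difference of -0.06, with 0 at an unadjusted p under 0.05. Within slide 1 their median was 0.015 and within slide 2 it was -0.52. All 3 comparisons share samples, so they are not separate support for each other.

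**Figure D3:**
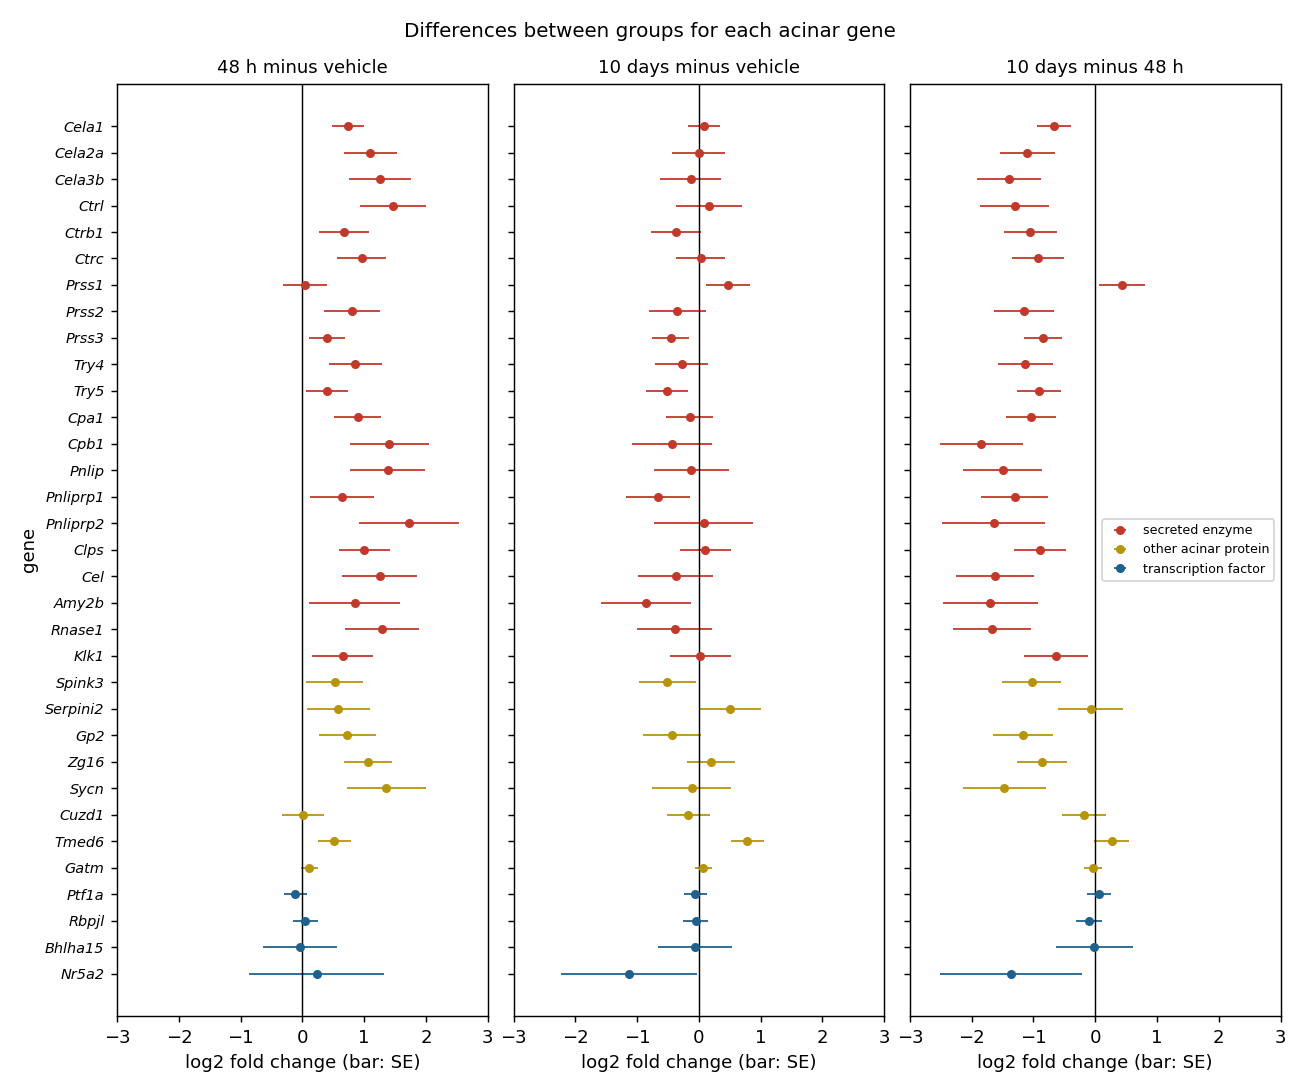
Log2 fold change (horizontal axis) with its SE (bars) for each of the 33 genes in the 3 comparisons, coloured by class. All enzyme points are above 0 at 48 h against vehicle and scatter around 0 at 10 days against vehicle. At 10 days against 48 h, 20 of 21 are below 0. Ptf1a, Rbpjl and Bhlha15 stay near 0 in each panel, which shows the fit over all 16 arrays.

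How closely the genes moved together was examined over the 16 arrays with Cpa1 as the reference, in 32 relations with 100000 permutations each and Benjamini-Hochberg adjustment over the 32. In total 24 relations had an adjusted p under 0.05, and 18 of the 20 other enzymes had r above 0.8, which 0.158% of the 22747 other genes had. All values share the array's scaling, and the genes were picked knowing that enzymes vary. Sycn followed Cpa1 most closely (r = 0.991, rho = 0.926; permutation adjusted p = 2e-05 for r, where 1e-05 is the smallest unadjusted p the permutations can give). Cela3b had r = 0.986 and rho = 0.956 with the same adjusted p. Leaving out the 2 arrays farthest from the Cpa1 median gave r = 0.983 for Sycn and 0.984 for Cela3b. Within slide 1 these were 0.987 and 0.977, and within slide 2 0.987 and 0.988. Cpa1 values left a gap of 0.624 between 7 lower and 9 upper arrays, so r was also taken on each side: 0.967 and 0.821 for Sycn, and 0.957 and 0.767 for Cela3b. These were the closest relations, and others among the 24 were weaker within the sides. In the same order r was 0.485 and 0.853 for Ctrl (0.94 over all arrays) and 0.655 and 0.319 for Spink3 (0.773). For Cuzd1 it was -0.208 and -0.0152 (0.535), so that relation was not seen within either side.

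The transcription factors did not pass in this test either. Rbpjl had r = 0.292 and rho = 0.0471 with Cpa1 (permutation p = 0.271, adjusted 0.334), and r = -0.128 within slide 1 and 0.366 within slide 2. Leaving out the 2 farthest arrays gave 0.256. Ptf1a had r = 0.215 and rho = 0.209 (permutation p = 0.423, adjusted 0.483), and 0.0119 without the 2 farthest arrays; within the slides r was 0.0664 and 0.271. Bhlha15 had r = -0.258 and Nr5a2 r = 0.197, with adjusted permutation p = 0.41 and 0.51; within slide 2 these were -0.0469 and 0.632, and within slide 1 -0.203 and -0.00878. These p-values do not show that the transcription factors are unrelated to Cpa1. The other members that missed the threshold were Prss1 (r = 0.177), Serpini2 (0.117), Tmed6 (-0.185) and Gatm (-0.335). Within slide 1 these were -0.586 for Prss1, 0.482 for Serpini2, -0.43 for Tmed6 and 0.114 for Gatm. Within slide 2 they were 0.51, 0.0771, -0.607 and -0.607 in the same order.

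**Figure D4:**
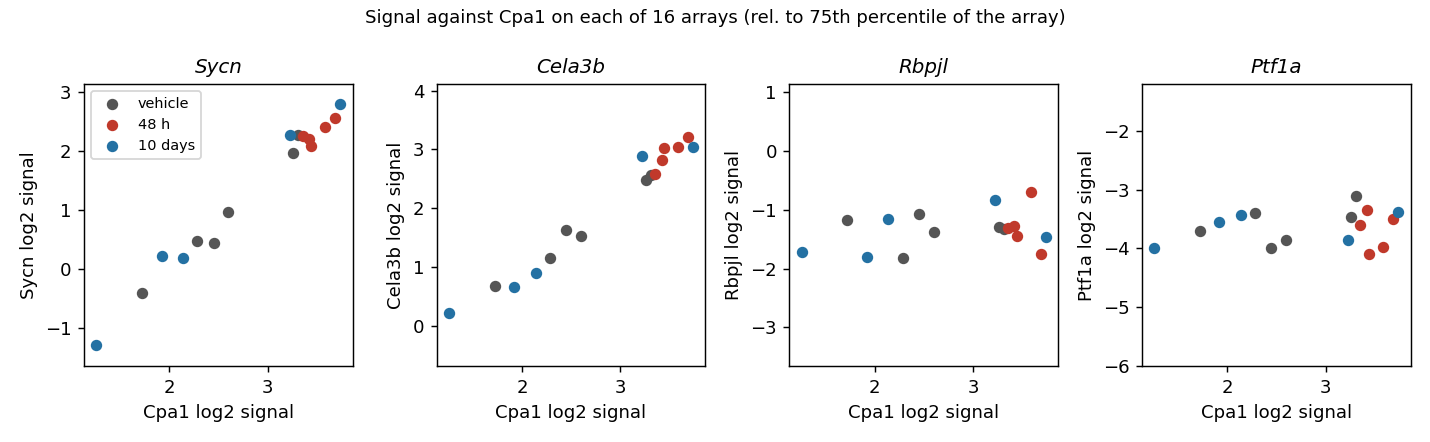
Log2 signal of Sycn, Cela3b, Rbpjl and Ptf1a (vertical axes, same span) against Cpa1 (horizontal axis) on each of 16 arrays, coloured by group. Sycn and Cela3b lie along a line with Cpa1 (r = 0.991 and 0.986), with arrays of the 3 groups on the same line, while Rbpjl (r = 0.292) and Ptf1a (r = 0.215) stay level.

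Second probes tell how far these values rest on the probe taken. The second probe of Cela1 had r = 0.974 with the reported one over the 16 arrays, and that of Pnlip had r = 0.972; their 48 h differences were 1.42 and 1.69. Those of Cela2a, Ctrc and Prss3 did not follow (r = 0.123, 0.0433 and 0.164), with 48 h differences of -0.26, 0.14 and -0.19. The second probe of Rbpjl had r = 0.44, a 48 h difference of -0.21 and a 10 day difference from vehicle of -0.61. That of Gatm had r = 0.716. For the trypsins, Prss2 had r = 0.972 with Try4, 0.963 with Prss3 and 0.921 with Try5, but 0.201 with Prss1. Its probe shares at most 6 bases in a row with theirs, but its match to their transcripts was not tested.

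From a list of 15 further genes taken here as acinar, which some may be only in part, 13 were tested: Try10 was not matched and Fgf21 was above background on 0 arrays. At 48 h 8 were higher and 5 lower than in vehicle. At an unadjusted p under 0.05, 2 were higher and 0 lower, against 0.91% of all genes higher. Among them was Pla2g1b, the secreted phospholipase A2, at 1.62 ± 0.61 (SE). Against 48 h, 9 were lower at 10 days, with a list median of -0.21, 0.05 within slide 1 and -0.76 within slide 2. At an unadjusted p under 0.05, 4 were lower, against 1.21% of all genes. Among them were the amylases Amy2a5 (-0.67 ± 0.20, SE) and Amy1 (-0.92 ± 0.29, SE). Each of these named genes had limma adjusted p = 1.0. Whether the amylase probes also match transcripts of other amylases was not tested. Pla2g1b at 48 h was 0.04, 0.08, -0.19, -0.10 and 0.25; the vehicle arrays reached from -3.15 to -0.18, and only replicate 4, at -0.18, came into the 48 h range. Of the genes of the list that are not digestive enzymes, Pdia2 (a disulfide isomerase) differed by 0.65 at 48 h, Cckar (a cholecystokinin receptor) by -0.60, Aqp12 by -0.18, Rab3d (a granule GTPase) by 0.13 and Gnmt by -0.04.

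Markers of other cells were read beside the acinar genes. The 9 tested ductal and tumour epithelial genes, all above background on every array, had a median 48 h difference of 0.01, and at 10 days all 9 were lower than vehicle (median -0.49, 0 at an unadjusted p under 0.05). Against 48 h all 9 were lower at 10 days too (median -0.57, 0 at that level), as 20 of the 21 enzymes were. In that comparison 8 of the 9 fibroblast genes were higher (median 0.28, 0 at that level). These directions differed between the slides. Within slide 1 the epithelial median at 10 days was 0.19 against vehicle and 0.06 against 48 h, and within slide 2 -1.02 and -1.13. The fibroblast median against 48 h was 0.74 within slide 1 and -0.15 within slide 2. The mean level of the 9 epithelial genes ran from -0.19 to 1.71 in vehicle, from -1.15 to 1.5 at 48 h and from -0.92 to 0.85 at 10 days. The 8 islet genes tested had a median 48 h difference of -0.08, and their mean ran from -3.10 to -1.44, from -2.94 to -2.61 and from -3.36 to -1.61 in the same order. Of 9 fibroblast genes 6 were lower at 48 h (median -0.20, and -0.03 with quantile normalization). Pdgfrb was at -2.03 ± 0.74 (SE, limma adjusted p = 1.0), with -2.68 within slide 1 and -0.615 within slide 2. Its signal was low, with means of -3.78 in vehicle and -5.81 at 48 h. The mean of the 9 fibroblast genes ran from -1.69 to -1.01, from -2.10 to -0.24 and from -2.39 to -0.63. The 8 macrophage genes had a median 48 h difference of 0.14, the 6 adipocyte genes -0.20, the 6 B cell genes 0.11 and the 5 hepatocyte genes tested 0.13. The B cell median turned between the slides, with -0.47 within slide 1 and 1.63 within slide 2, and the adipocyte median was 0.15 and -0.20. For macrophage genes it was 0.08 and 0.075, and for hepatocyte genes 0.51 and 0.20. The part of any of these cell types in the acinar values was not tested.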

How the data were processed

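Tumour RNA from 16 samples (6 vehicle, 5 at 48 h, 5 at 10 days, by the treatment and time labels) was amplified and labelled with Cy5, per the labels' protocols. The submitters' processing notes name Agilent Feature Extraction 11.5.1.1. The processed signal is a background-corrected intensity on a linear scale, per the file headers, with probe positions on mm9. A further table deposited by the authors has log2 values, quantile-normalized (sorted columns differ by at most 0.0043), used to choose 1 probe per symbol and as an alternative.

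Here control and outlier spots were left out, log2 signals of 1 probe averaged, and the 75th percentile of the 56605 probes subtracted per array. The linear 75th percentile ran from 4952.5 to 6735.8, and the number of arrays limits the precision. Groups were compared with limma 3.58.1 (R 4.3.3; lmFit on 3 groups, robust eBayes), with 2-sided p-values adjusted by Benjamini-Hochberg over 22748 genes at 0.05; the script was tested on simulated data. Correlations used SciPy 1.17.1 and Python 3.11.15, and permutation p-values were 2-sided. Members, lists and rules were chosen with earlier results of these data known. Named genes are all members, at most 2 per other list and comparison by unadjusted p, and the 8 genes most like the enzyme mean; Pdia2, Cckar, Rab3d, Aqp12 and Gnmt were added after their values were seen, and 1 gene taken by the rule is not reported here. Alternatives were quantile normalization, normexp (offset 50), no or a stricter filter, slides, the mean of probes, and leaving out arrays.

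Arrays correlated at r = 0.944 to 0.977 over the genes tested, so none is a copy. The titles of vehicle replicate 2 and 48 h replicate 5 share an ID number (r = 0.956 between them); both were kept, and values without them are given as an alternative.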

Additional observations from a re-analysis of the deposited data

Results flagged for a closer look

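Each member was examined in each group for a single array far from the others, in 99 groups of 5 or 6 arrays, and 2 (2.02%) stood out; about 1 in 20 is what chance gives. Cela2a in 48 h replicate 4 was at 3.66, while the others lay between 3.97 and 4.05. Serpini2 in 10 day replicate 5 was at -2.27, while the others lay between -5.57 and -4.83.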

How the results depend on the processing

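Of the 22748 genes tested, 0 passed in each comparison. Without the filter on dim probes, 1 gene (4930448H16Rik, above background on 4 arrays) passed at 48 h and at 10 days against vehicle, and with normexp 1 gene (Galr2) passed at 10 days against 48 h. Leaving out 1 array gave 0 to 1 genes in each comparison: 1 was reached at 48 h against vehicle and at 10 days against 48 h without vehicle replicate 5 (Dyx1c1), and at 10 days against vehicle without 10 day replicate 4 (A630052C17Rik). None of these genes is a member. The enzyme median moved to -1.11 (10 days against vehicle) and -2.14 (10 days against 48 h) within slide 2 alone, where 1 array at 48 h is left; the cause was not tested. With 1 array left out it ran from 0.716 to 1.03 at 48 h against vehicle, from -0.592 to 0.150 at 10 days against vehicle, and from -1.47 to -0.883 at 10 days against 48 h. At 48 h against vehicle, all 21 enzymes were higher with quantile normalization and 20 with normexp or the slide as a block, 17 were higher within slide 1, and without the pair of samples with a shared ID the median was 1.05. The number of genes related to Cpa1 was between 20 and 24 of 32 in the alternatives run. Over 819 values of members per comparison, 7 moved by more than the spread at 48 h against vehicle, 24 at 10 days against vehicle and 26 at 10 days against 48 h. Part of these values could not move. Leaving out an array outside the groups compared, or changing the filter on dim probes, does not alter a group difference. For members with 1 probe the mean of probes equals the reported value. The counts are therefore no measure of how stable the values are. Dim probes (Nr5a2, Pnliprp2, Bhlha15, Prss1) have the least certain values. No paired analysis was possible because the groups share at most 1 ID number, that of vehicle replicate 2 and 48 h replicate 5, and the description of the former gives another.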

Other observations

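Among the genes outside the 33 whose signal was most like the mean of the enzymes over the 16 arrays were Cela3a (r = 0.981), an elastase-family protease, Gm5409 (0.955), Pla2g1b (0.955), Egfbp2 (0.953), Klk1b24 (0.951), Gm5771 (0.95) and Amy1 (0.945). They were picked for this likeness, which is a description with no test. The 48 h log2 difference from vehicle was 1.43 for Cela3a, 0.92 for Gm5409, 0.68 for Egfbp2, 0.60 for Klk1b24 and 0.59 for Gm5771. At 10 days against 48 h the same genes were at -1.57, -1.40, -1.04, -0.72 and -1.17.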
